A study of Rattus norvegicus with 49 samples.

Results

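The genes described here encode the proteasome, the protease that degrades proteins tagged with ubiquitin. They were taken as all measured genes whose symbol runs from Psma to Psmg followed only by a number, with 1 gene left out of the set. This gave 43 of the 14217 genes measured in rat liver. They comprised 15 genes of the core particle (7 Psma and 8 Psmb), 20 of the regulatory cap (6 Psmc and 14 Psmd) and 8 for activators, an inhibitor and assembly factors (3 Psme, 1 Psmf and 4 Psmg). Psmb6 and Psme3 lay only on probe sets that carry several gene symbols and were not used here. The animals were 49 male Sprague Dawley rats, 8 to 10 weeks old when the diets began, each measured on 1 array. Group 1 ate ad libitum and was not fasted, and group 2 ate ad libitum and was fasted overnight before sampling. Food was cut by 15% in group 3, 30% in group 4 and 60% in group 5, each with the same overnight fast as group 2. Livers were taken at day 4 or day 14 from 5 rats per group and day, and from 4 in group 1 at day 14. The labels and the study's methods leave group 1 unfasted, whereas the series description has every animal fasted.

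The proteasome is a barrel of stacked rings with a cap at its ends. The outer rings of the barrel are made of alpha subunits (Psma) and control entry, and the inner rings of beta subunits (Psmb) hold the cutting sites. The cap consists of a base, whose ATPases (Psmc) unfold the substrate and whose other subunits include receptors for ubiquitin chains, and a lid, which removes the chains. Psmd genes encode subunits of both, and chaperones of the base. Immune cells, and other cells exposed to interferon, exchange some beta subunits for inducible ones (Psmb9 and Psmb10) and add a different ring activator (Psme1 and Psme2), which shapes the peptides shown to T cells. In liver the proteasome takes part in ordinary protein turnover, beside autophagy.

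Proteasome genes were expressed well above most genes on the array. Their mean log2 intensities over all rats lay between 8.25 and 12.30, with a median of 10.54 against 7.42 for all measured genes, and all 43 were above that overall median. Array-wide medians of the 49 rats were within log2 6.34 to 6.43, in values that had been normalized to the same distribution. The liver label was checked by 5 hepatocyte markers, whose mean was 13.88 to 14.15 in groups 1, 2 and 5 at both days. In whole liver, fewer cells of a type and less RNA per cell cannot be told apart. The 3 comparisons with group 2 on a day share its rats, so they are not independent of each other.

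Proteasome genes were lower in diet-restricted livers than in fasted ad libitum livers. By limma, at an adjusted p under 0.1 over all genes, 29 of 43 members fell and 1 rose in group 5 at day 14 relative to group 2, where 10.9% of all genes fell and 8.88% rose. The median member was 17.0% lower (log2 -0.27), and 41 of 43 were below zero. In group 4 at day 14, 27 fell and 1 rose, with 6.24% of all genes falling, 6.52% rising and a median of log2 -0.22. In group 3 at day 14, 11 fell and none rose, against 3.14% of all genes, with a median of -0.17. At day 4, 20 fell and 1 rose in group 5 (3.58% of all genes fell and 3.56% rose) and 15 fell in group 4 (2.38%), with medians of -0.21 and -0.23. In group 3 at day 4 none of the 43 passed limma's adjusted threshold, which 0.141% of all genes did as lower. The median there was -0.18, 40 of 43 members were below zero, 26 had an unadjusted p under 0.05, and 16 were called lower when all groups shared 1 fit. Shares over all genes are not given for these counts, so they do not show that members exceeded the background. The median over all genes was near zero in every comparison, for example log2 0.01 in group 5 at day 4. The deposited values were normalized so that all arrays have the same distribution, which largely fixed this in advance. No log2 intensities of group 5 and group 2 overlapped for 28 members lower in group 5 at day 14, against 7.06% of all genes. With 1 rat left out at a time, 24 to 31 members fell in group 5 and 19 to 26 in group 4 at day 14, but 5 to 14 in group 3 at day 14 and 4 to 20 in group 4 and 10 to 24 in group 5 at day 4. With all groups in 1 fit 27 fell in group 4 (day 4) and 23 in group 3 (day 14), whereas at an adjusted p under 0.05 these counts were 7 and 5, and 12 fell in group 5 at day 4. For these alternatives the share of all genes is not given.

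**Figure D1:**
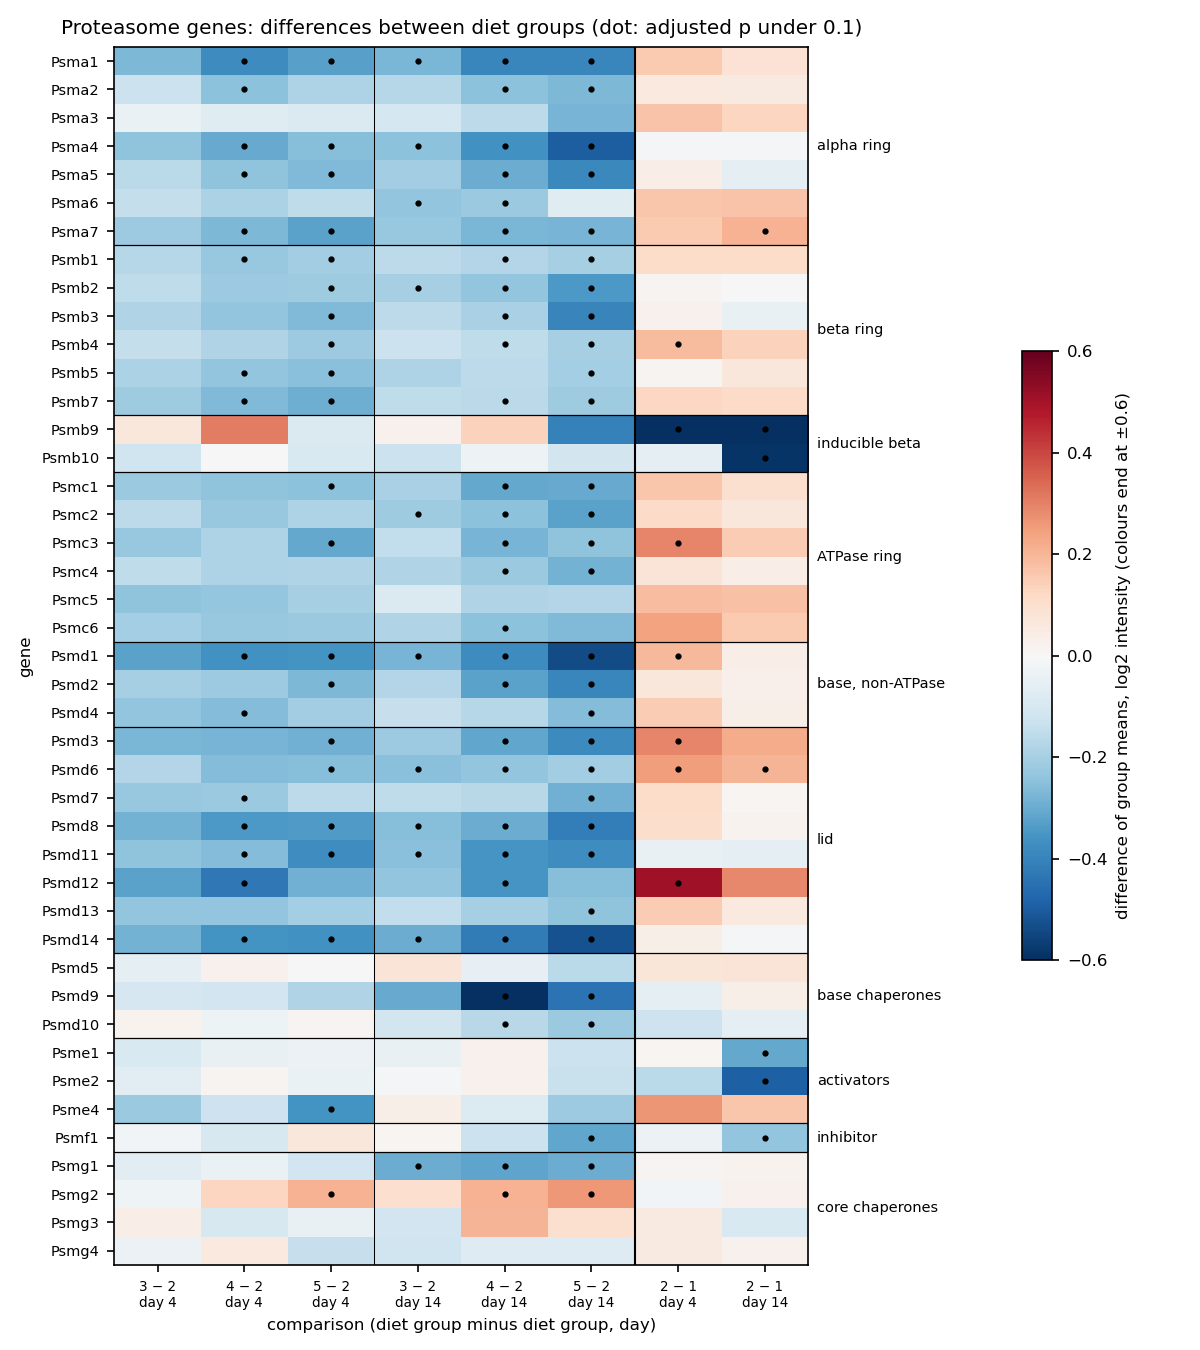
Rows are the 43 genes ordered by their place in the proteasome and columns are comparisons of diet groups at day 4 or 14, with colour for the difference in mean log2 intensity and a dot where limma's adjusted p was under 0.1. The 6 columns on the left (groups 3, 4 and 5 minus group 2) are mostly blue in the rings, base and lid, whereas Psmb9, Psmb10, Psme1 and Psme2 carry no dot there and are blue in the last column, fasted minus fed at day 14.

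Most of the genes that fell encode building blocks of the particle. Of the 30 structural subunits (alpha and beta rings, ATPases, other base subunits and lid), 28 fell in at least 1 of the 6 comparisons with group 2, as did 5 of the other 13 members and 13.9% of all genes. In group 5 at day 14 the structural subunits that fell were 5 of 7 alpha, 6 of 6 beta, 4 of 6 ATPase, 3 of 3 other base and 7 of 8 lid genes. The mean of the 30 per rat was 10.46, 10.49, 10.36, 10.54 and 10.43 in group 5 at day 14, against 10.81, 10.70, 10.85, 10.69 and 10.77 in group 2. No group 5 rat reached the lowest group 2 rat. Over the groups at day 14 this mean was 10.68 ± 0.04 (n = 4) in group 1, 10.76 ± 0.07 in group 2, 10.57 ± 0.05 in group 3, 10.51 ± 0.03 in group 4 and 10.46 ± 0.07 in group 5 (SD, n = 5 in groups 2 to 5). At day 4 it was 10.66 ± 0.05, 10.80 ± 0.09, 10.59 ± 0.07, 10.55 ± 0.09 and 10.55 ± 0.05 in groups 1 to 5 (SD, n = 5), so that groups 4 and 5 did not differ beyond their spread at that day. Among the 5 groups, group 2 had the highest mean for 31 members at day 4 and 28 at day 14, and the lowest mean was that of group 4 for 16 and of group 5 for 16 at day 4, and of group 5 for 30 at day 14.

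**Figure D2:**
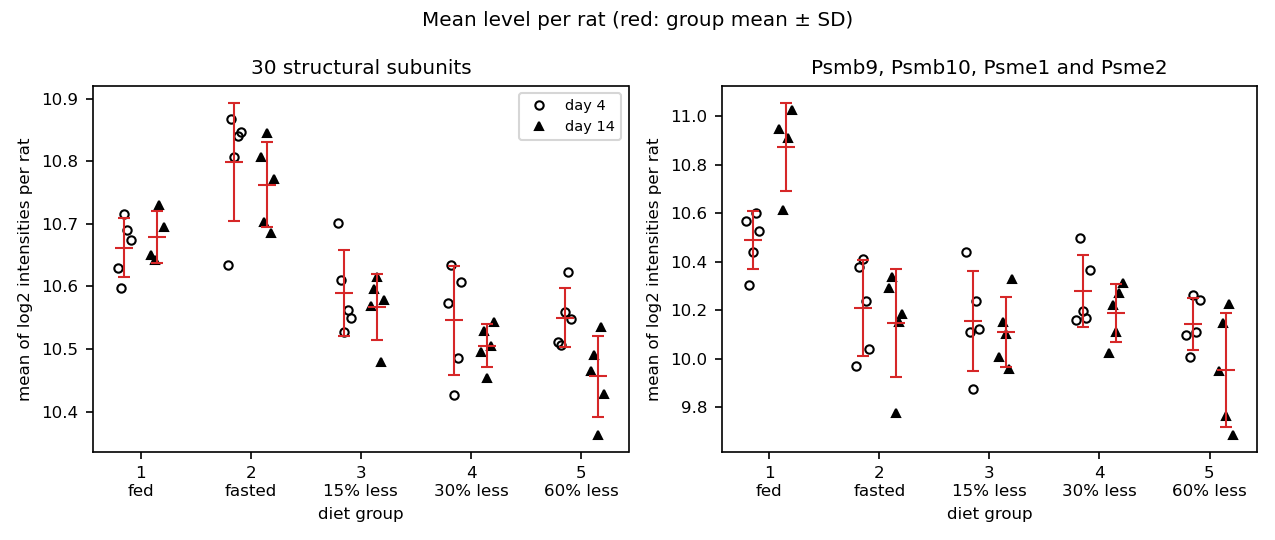
Each symbol is 1 rat (day 4 as open circles, day 14 as filled triangles), by diet group and as the mean log2 intensity of 30 structural subunits on the left and of Psmb9, Psmb10, Psme1 and Psme2 on the right, with the group mean ± SD in red. The structural subunits are highest in group 2 and lowest in group 5 at day 14 (10.46), whereas the right panel is high in group 1 only, above all at day 14 (10.87).

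The 300 bases around the members' starts (250 before, 50 after, RefSeq, build GRCr8) were read for short motifs on both strands. A window was found for 39 members and 11733 measured genes. The antioxidant response element core (TGACNNNGC), which NRF1 (Nfe2l1) and NRF2 bind with small Maf proteins, lay in 7 of 39 member windows (17.9%), against 14.4% of those of all measured genes. The ETS core (CCGGAAG) lay in 13 member windows (33.3%), against 15.1%. The CCAAT box lay in 19 (48.7%), against 37.3%. The palindrome of nuclear respiratory factor 1, a different protein from Nfe2l1, lay in 6 (15.4%), against 8.49%, and the E-box CACGTG in 4 (10.3%), against 8.92%. In these windows the only overlap between different motifs was of a CCAAT box with the antioxidant response element core of Psmb2. Promoters of 3 members are shown, Psmd1 for its large fall and its 2 antioxidant response element cores, Psmb7 as a catalytic subunit with 2 ETS cores, and Psmg2 as the member that rose. Capitals mark antioxidant response element cores and ETS cores, of which the Psmg2 window holds none, and each sequence runs 5′ to 3′ on the gene's strand. They are Psmd1 at chr9:94157721-94158020 (plus strand), Psmb7 at chr3:42827421-42827720 (minus strand) and Psmg2 at chr18:63478370-63478669 (plus strand).
Psmd1: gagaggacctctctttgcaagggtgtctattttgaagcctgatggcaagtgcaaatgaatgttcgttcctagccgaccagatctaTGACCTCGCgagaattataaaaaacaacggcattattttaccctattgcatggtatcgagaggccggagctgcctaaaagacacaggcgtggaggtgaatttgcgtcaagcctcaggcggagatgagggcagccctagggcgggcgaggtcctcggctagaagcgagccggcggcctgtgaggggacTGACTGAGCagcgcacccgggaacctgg
Psmb7: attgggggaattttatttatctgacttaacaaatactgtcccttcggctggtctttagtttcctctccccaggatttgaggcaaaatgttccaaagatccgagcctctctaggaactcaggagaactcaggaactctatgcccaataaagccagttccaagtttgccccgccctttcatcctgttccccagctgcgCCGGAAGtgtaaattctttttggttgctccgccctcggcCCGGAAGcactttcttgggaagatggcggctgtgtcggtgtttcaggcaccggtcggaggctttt
Psmg2: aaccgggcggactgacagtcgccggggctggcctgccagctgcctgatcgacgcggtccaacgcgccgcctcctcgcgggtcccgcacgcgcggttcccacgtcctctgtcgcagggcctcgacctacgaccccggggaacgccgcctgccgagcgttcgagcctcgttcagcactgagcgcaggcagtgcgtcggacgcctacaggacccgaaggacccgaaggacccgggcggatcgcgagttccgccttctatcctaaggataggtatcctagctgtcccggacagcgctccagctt

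Of the 7 alpha ring genes 5 fell in group 5 at day 14, among them Psma1 and Psma4. Log2 intensity of Psma1 was 10.80, 11.02, 10.75, 11.02 and 10.88 in group 5 at day 14, against 11.35, 11.21, 11.42, 11.19 and 11.24 in group 2. The groups did not overlap, and the difference was -0.39 ± 0.08 (SE, limma adjusted p = 0.0058). Psma1 was -0.38 ± 0.07 in group 4 at day 4 (adjusted p = 0.0132) and -0.39 ± 0.07 at day 14 (0.00371). Psma4 was 9.85, 9.95, 9.86, 10.09 and 9.99 in group 5 at day 14, against 10.52, 10.41, 10.48, 10.38 and 10.44 in group 2. Its fall of -0.50 ± 0.07 (adjusted p = 0.000505) was the largest of the core genes in that comparison. Means of Psma4 at day 14 were 10.45, 10.20, 10.08 and 9.95 in groups 2, 3, 4 and 5. Psma7 was steadier, at 11.23, 11.22, 11.20, 11.24 and 11.24 in group 5 at day 14, against 11.55, 11.49, 11.45, 11.54 and 11.49 in group 2 (-0.28 ± 0.05, adjusted p = 0.00512). Psma7 means were 11.28 in group 3, 11.23 in group 4 and 11.22 in group 5 at day 14, so that these neighbours differed by less than the spread in group 3 (SD 0.13). Of the other alpha genes, Psma2, Psma5 and Psma6 fell in at least 1 comparison, and Psma3 fell in none. Psma3 was -0.28 ± 0.11 in group 5 at day 14 (adjusted p = 0.118).

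Beta ring genes include the cutting subunits. Psmb5 carries the chymotrypsin-like site. Its log2 intensity was 11.94, 11.89, 11.89, 11.83 and 11.87 in group 5 at day 14, against 12.15, 12.07, 12.06, 12.08 and 12.08 in group 2. Every group 5 rat was below every group 2 rat (-0.20 ± 0.06, adjusted p = 0.0281), as at day 4 (-0.25 ± 0.05, 0.0226). Its 2 further probe sets did not show the fall in group 5 at day 14 (0.01 and 0.00), and the last of them was below the limit used for dim genes, log2 5.68. Psmb5 was as low in group 3 (11.90) as in group 5 (11.88) at day 14, where the difference in group 3 from group 2 did not pass (-0.18 ± 0.06, adjusted p = 0.114). Psmb7, the trypsin-like subunit, was 11.49, 11.54, 11.47, 11.49 and 11.35 in group 5 at day 14, against 11.71, 11.59, 11.74, 11.66 and 11.70 in group 2 (-0.21 ± 0.06, adjusted p = 0.0376). Of the structural beta genes, Psmb3 fell most in group 5 at day 14 (-0.40 ± 0.07, adjusted p = 0.00208), at 10.93, 11.01, 10.90, 11.12 and 10.87 in group 5 and 11.39, 11.40, 11.40, 11.30 and 11.32 in group 2. Psmb3 belongs to the ring without being a cutting subunit.

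Averaged over the 6 comparisons with group 2, the largest differences of all members were those of the cap genes Psmd14 and Psmd1 (-0.37 each). Psmd14 is the lid enzyme that cuts ubiquitin chains from the substrate. It was 9.21, 9.31, 9.01, 9.43 and 9.11 in group 5 at day 14, against 9.81, 9.67, 9.82, 9.67 and 9.72 in group 2. The groups were apart, by -0.52 ± 0.08 (adjusted p = 0.0015). At day 4 Psmd14 was -0.28 ± 0.07 in group 3 (adjusted p = 0.182), -0.36 ± 0.08 in group 4 (0.0337) and -0.36 ± 0.06 in group 5 (0.00941). Both further probe sets of this gene were lower in group 5 at day 14 as well, by -0.45 and -0.42. Psmd1, the scaffold of the base, was 8.75, 8.99, 8.89, 8.73 and 8.60 in group 5 at day 14, against 9.28, 9.24, 9.58, 9.31 and 9.25 in group 2 (-0.54 ± 0.09, adjusted p = 0.00224). Its promoter, shown above, holds 2 antioxidant response element cores, as does that of Psmd9. Psmd8, a lid subunit, was 10.91, 10.94, 10.91, 10.97 and 10.79 in group 5 at day 14, against 11.33, 11.29, 11.42, 11.24 and 11.33 in group 2 (-0.42 ± 0.06, adjusted p = 0.00106). Psma1, Psma4, Psmd1, Psmd8, Psmd11 and Psmd14 each fell in 5 of 6 comparisons, all but group 3 at day 4, and no member fell in all 6. Of all genes 0.9% fell in at least 5.

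**Figure D3:**
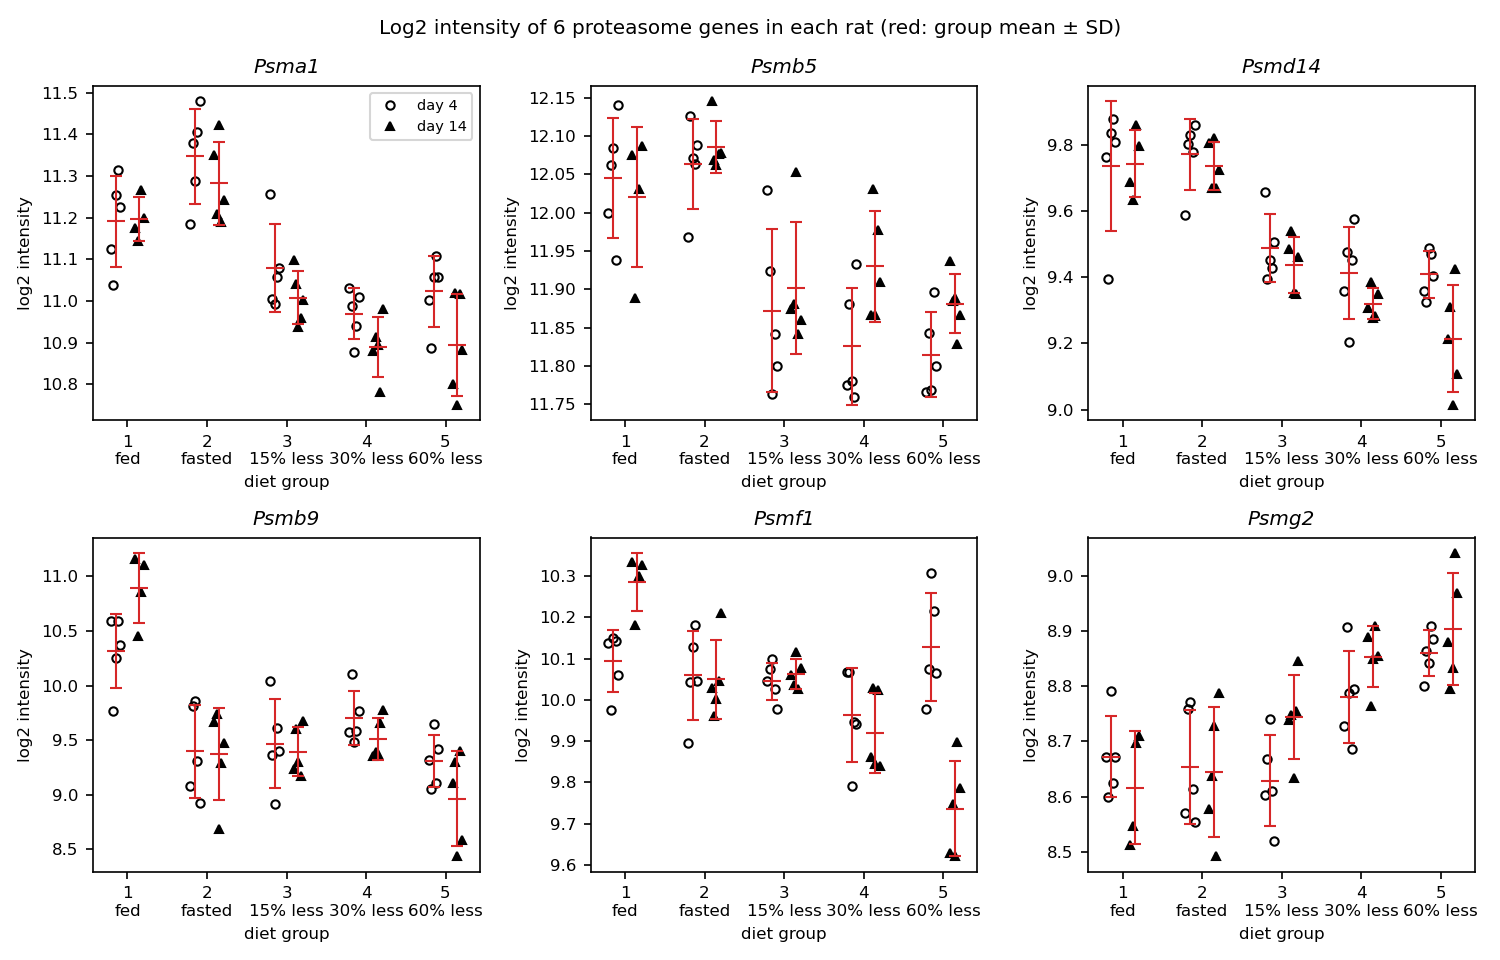
Log2 intensity of 6 genes in each rat by diet group (day 4 open, day 14 filled), with the group mean ± SD in red. Psma1, Psmb5 and Psmd14 are lower in groups 3 to 5 than in group 2, Psmb9 is high in group 1 only (mean 10.89 at day 14), Psmf1 is lowest in group 5 at day 14 (9.74), and Psmg2 is highest in group 5 (8.90 at day 14).

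Of the 6 ATPase genes 4 fell in group 5 at day 14, by -0.32 ± 0.06 for Psmc2 (adjusted p = 0.0045), -0.30 ± 0.07 for Psmc1 (0.00913), -0.28 ± 0.07 for Psmc4 (0.0177) and -0.24 ± 0.08 for Psmc3 (0.0682). A further, dim probe set of Psmc4 was 0.08 in that comparison. Psmc6 fell in group 4 at day 14 (-0.24 ± 0.07, adjusted p = 0.0414), where its further probe sets were at -0.05 and -0.41. Psmc5 fell in none of the 6 comparisons, at -0.17 ± 0.07 in group 5 at day 14 (adjusted p = 0.139). The base subunits Psmd2, which docks substrate carriers, and Psmd4, a ubiquitin receptor, fell by -0.39 ± 0.07 and -0.26 ± 0.07 in group 5 at day 14 (adjusted p = 0.00251 and 0.0198). In the lid, Psmd12 was more variable, at -0.43 ± 0.10 in group 4 at day 4 (adjusted p = 0.0527) and -0.26 ± 0.11 in group 5 at day 14 (0.146).

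Assembly factors, which leave the particle once it is built, did not move as a block. Psmd9, a chaperone of the base, was 8.75, 8.75, 8.39, 8.89 and 8.91 in group 5 at day 14, against 9.44, 9.18, 9.15, 9.04 and 9.09 in group 2 (-0.44 ± 0.11, adjusted p = 0.0167). Psmd9 was lower still in group 4 (-0.61 ± 0.12, adjusted p = 0.0104), where 1 rat was level with the lowest of group 2 (9.04). Its further probe set, with a mean of log2 6.535, differed less at day 14, by -0.11 in group 5 and -0.22 in group 4. Psmd10 fell at day 14 in groups 4 and 5 (-0.17 ± 0.06 and -0.22 ± 0.07, adjusted p = 0.0869 and 0.0549), and Psmd5 did not pass in any (-0.16 ± 0.11 in group 5 at day 14). The core chaperones Psmg1 and Psmg2 work as a pair on the alpha ring, and here they went in opposite directions. Psmg1 was 10.60, 10.44, 10.33, 10.58 and 10.49 in group 5 at day 14, against 10.83, 10.77, 10.96, 10.72 and 10.67 in group 2 (-0.30 ± 0.08, adjusted p = 0.0224). Psmg2 was 8.88, 8.79, 8.83, 9.04 and 8.97 in group 5 at day 14, against 8.58, 8.64, 8.73, 8.49 and 8.79 in group 2. The lowest group 5 rat was just above the highest in group 2, and the rise was 0.26 ± 0.08 (adjusted p = 0.0416). Psmg2 was also higher in group 5 at day 4 (0.21 ± 0.06, adjusted p = 0.0827) and in group 4 at day 14 (0.21 ± 0.07, 0.0835), and it was the only member called higher against group 2. Psmg3 and Psmg4, the other pair, passed in none of the 6 comparisons, at 0.09 ± 0.16 and -0.08 ± 0.07 in group 5 at day 14.

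Of the activators and the inhibitor, Psme4 and Psmf1 each fell in 1 of the 6 comparisons. Psme4, a large single-chain activator found mainly in the nucleus, was 10.68, 10.86, 10.97, 10.60 and 10.80 in group 5 at day 4, against 11.06, 11.26, 10.82, 11.23 and 11.34 in group 2. The groups overlapped, and the difference was -0.36 ± 0.10 (adjusted p = 0.0806), with its 2 further probe sets at -0.35 and -0.03. Psmf1, which inhibits the core particle in the test tube, was 9.63, 9.75, 9.62, 9.90 and 9.79 in group 5 at day 14, against 10.03, 9.96, 10.00, 10.05 and 10.21 in group 2 (-0.31 ± 0.08, adjusted p = 0.016). At day 4 it was 9.98, 10.07, 10.31, 10.22 and 10.07 in group 5, against 9.90, 10.04, 10.13, 10.18 and 10.05 in group 2 (0.07 ± 0.08, adjusted p = 0.71). The change between these 2 differences was -0.38 ± 0.11 (limma interaction, adjusted p = 0.094). Psmf1 was the only member that passed that test, which 1.20% of all genes did as lower. With 1 rat left out at a time it passed in 4 of 20 fits (limma adjusted p = 0.0652 to 0.188), and with all groups in 1 fit 2 members passed.

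The 4 interferon-inducible members differed mainly between fasted and fed rats, all 4 of them at day 14 but only Psmb9 at day 4. Psmb9, Psmb10, Psme1 and Psme2 passed in none of the 6 comparisons with group 2, and their differences in group 5 at day 14 were -0.41 ± 0.23, -0.11 ± 0.15, -0.13 ± 0.08 and -0.13 ± 0.09. All 4 were lower in fasted than in fed ad libitum rats at day 14. Psmb9 was 9.67, 9.74, 8.68, 9.29 and 9.47 in group 2 at day 14, against 11.16, 10.45, 10.86 and 11.10 in group 1. No fasted rat reached a fed one, and the difference was -1.52 ± 0.21 (adjusted p = 0.00158). At day 4 Psmb9 was 9.08, 9.81, 9.86, 9.31 and 8.92 in group 2, against 10.59, 9.77, 10.25, 10.59 and 10.37 in group 1 (-0.92 ± 0.21, adjusted p = 0.0115), with 1 fed rat among the fasted ones. At day 14 Psmb10 was 8.86, 8.88, 8.28, 8.69 and 8.70 in group 2, against 9.26, 8.87, 9.46 and 9.48 in group 1 (-0.59 ± 0.15, adjusted p = 0.0356), with 1 fed rat within the fasted range. Psme1 was 12.11, 12.13, 11.90, 12.13 and 12.08 in group 2 at day 14, against 12.33, 12.32, 12.40 and 12.46 in group 1 (-0.31 ± 0.07, adjusted p = 0.0203). Psme2 was 10.53, 10.62, 10.23, 10.48 and 10.50 in group 2 at day 14, against 11.04, 10.80, 10.94 and 11.06 in group 1 (-0.49 ± 0.09, adjusted p = 0.00711). At day 4 Psmb10, Psme1 and Psme2 did not pass (adjusted p = 0.816, 0.925 and 0.142). Whether the fed and fasted groups differed more at day 14 than at day 4 was tested by the interaction. No member passed it (4 of 43 at an unadjusted p under 0.05). Fed group 1 itself was higher at day 14 than at day 4, by 0.58 ± 0.19 (Psmb9), 0.45 ± 0.12 (Psmb10), 0.25 ± 0.06 (Psme1) and 0.27 ± 0.07 (Psme2). None of the 4 passed between days (limma adjusted p = 0.13 to 0.21).

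Beside these 4 genes, lists of markers of other cells were compared between groups 2 and 1 at day 14. Mean log2 intensities of the B and plasma cell, endothelial and erythroid lists were 6.42, 9.54 and 9.41 in group 2, against 6.28, 9.48 and 9.14 in group 1. Their ranges per rat overlapped, at 6.26 to 6.62 and 6.08 to 6.60, 9.46 to 9.60 and 9.45 to 9.51, and 9.12 to 9.67 and 8.99 to 9.20. The cholangiocyte list was lower in group 2, at 6.17 against 6.30, also with overlap. Means below log2 5.68 were found for 1 of 4 B and plasma cell and 2 of 5 cholangiocyte markers. Kupffer, T and NK and stellate lists were lower in group 2, with means of 9.63, 6.19 and 7.98 against 9.87, 6.32 and 8.38. Of 6 Kupffer cell and macrophage markers 1 was lower in group 2 than in group 1 at day 14, the median was log2 -0.21, and the list's mean per rat was 9.32 to 9.83 in group 2 and 9.72 to 10.08 in group 1. Of 8 T and NK cell markers 1 was lower (median -0.10, 6.11 to 6.34 in group 2 and 6.31 to 6.34 in group 1), and 2 of the 8 had means below the limit for dim genes, log2 5.68. Of 8 stellate cell and fibroblast markers 4 were lower (median -0.47, 7.61 to 8.25 in group 2 and 8.13 to 8.88 in group 1). At day 4, when of these 4 genes Psmb9 alone passed, 0 Kupffer, 0 T and NK and 3 stellate cell markers were lower. The means of these lists at day 4 were 9.48 in group 2 and 9.39 in group 1 for Kupffer cells, 6.15 and 6.16 for T and NK cells, and 8.00 and 8.40 for stellate cells. Of 8 genes of antigen presentation 4 were lower in group 2 at day 14 and 3 at day 4, led by calreticulin (Calr, -0.67 ± 0.06, adjusted p = 0.000108 at day 14), and the peptide transporter genes Tap1 and Tap2 were among them at day 14 (-0.42 ± 0.12 and -0.43 ± 0.13, 0.067 and 0.065). Of all genes 7.26% were lower at day 14 and 9.76% at day 4. The part of these cells in the result was not tested.

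In fasted rats relative to rats fed ad libitum, members rose at about the share of all genes. Those that rose were structural subunits, as are 30 of the 43 members, so this is not read as a trait of those subunits. In group 2 relative to group 1 at day 4, 6 of 43 members rose and 1 fell, where 11.5% of all genes rose and 9.76% fell. Those that rose were Psmb4, Psmc3, Psmd1, Psmd3, Psmd6 and Psmd12, with the largest difference in Psmd12. Psmd12 was 8.53, 8.91, 8.84, 8.85 and 9.03 in group 2 at day 4, against 8.46, 8.05, 8.46, 8.44 and 8.20 in group 1 (0.51 ± 0.11, adjusted p = 0.00775). One rat of group 2 at day 4 stood low over the whole set, with a mean over the 43 members of 10.35 where the next was 10.52, and without it 16 members rose. The count was 4 to 16 with 1 rat left out at a time and 15 with all groups in 1 fit. At day 14, 2 rose (Psma7 by 0.21 ± 0.06, adjusted p = 0.0459, and Psmd6 by 0.20 ± 0.07, 0.0978), where 5.92% of all genes rose. The 5 that fell at day 14 (7.26% of all genes) were the 4 interferon-inducible genes and Psmf1 (-0.24 ± 0.07, adjusted p = 0.0645).

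Diet-restricted livers were also set against the fed group 1. Groups 3 to 5 were fasted and group 1 was not, so diet and fast cannot be told apart here. In group 5 at day 14, 25 of 43 members fell and 1 rose (18.9% of all genes fell and 15.2% rose), among them 17 of 30 structural subunits, and at day 4 14 fell and 1 rose (10.5% and 13.3%), with 11 structural ones. In groups 3 and 4, 5 and 12 members fell at day 4 (8.26% and 9.69% of all genes) and 15 and 23 at day 14 (11.2% and 12.5%). One member rose in each of groups 3 and 4 at day 14, Psme4 and Psmg2, where 11.2% and 12.2% of all genes rose. Psmd14 in group 5 at day 14 was as far below group 1 (-0.53 ± 0.09, adjusted p = 0.00171) as below group 2. Psma7 and Psmc5 were close to group 1 (-0.07 ± 0.06 and 0.00 ± 0.07), and Psmg2 was 0.29 ± 0.08 above it (adjusted p = 0.0173). Psmb9 in group 5 at day 14 was 9.11, 9.30, 8.43, 9.40 and 8.58, against the fed values above (-1.93 ± 0.22, adjusted p = 0.000112).

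**Figure D4:**
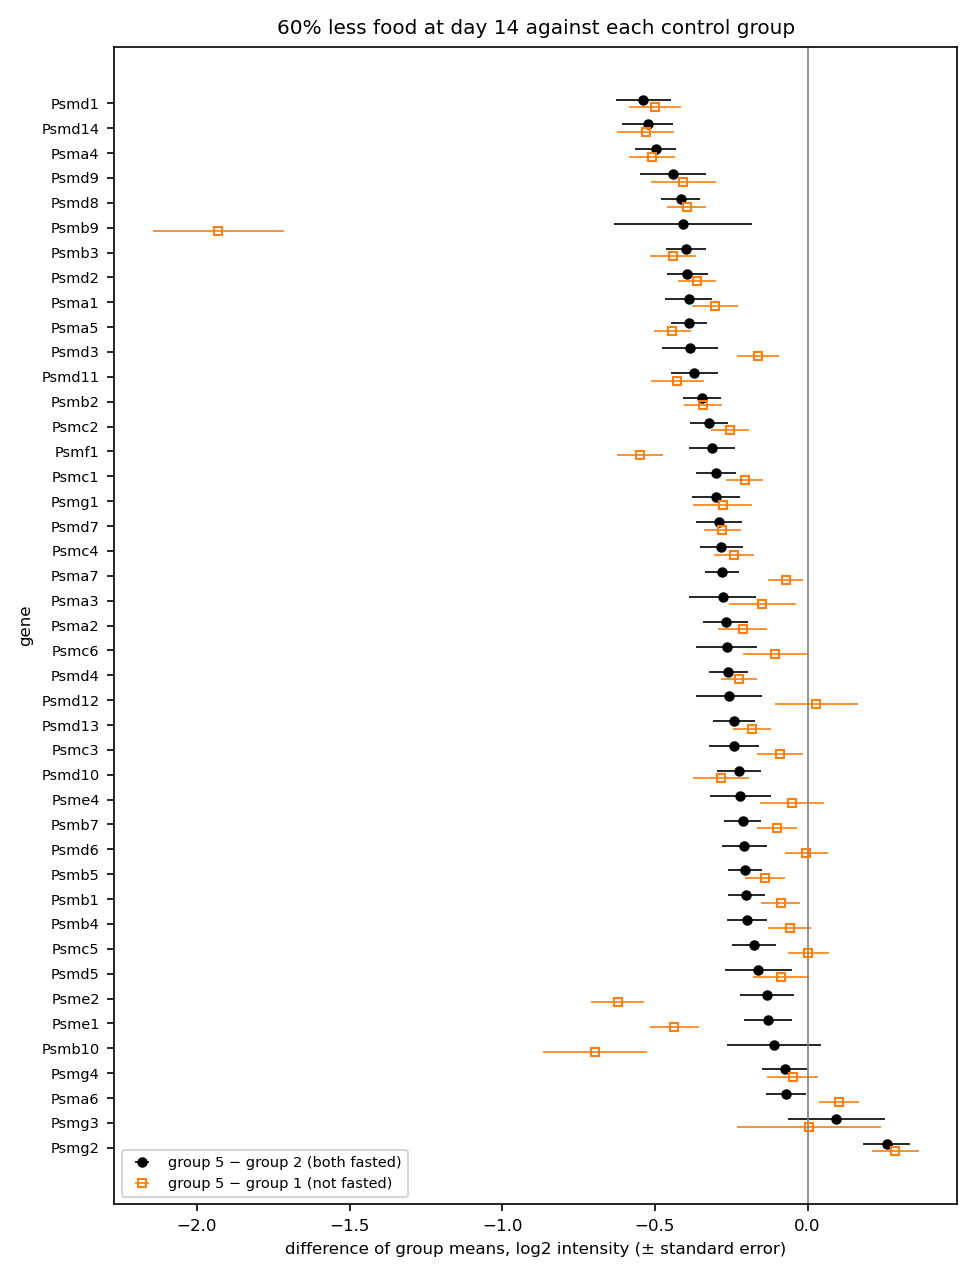
Differences in mean log2 intensity with standard errors for the 43 genes in group 5 at day 14, against fasted group 2 (filled circles, by which rows are ordered) and against unfasted group 1 (open squares). Psmd1, Psmd14 and Psma4 lie near -0.50 against both, whereas Psmb9 (-1.93), Psmb10, Psme1 and Psme2 lie further below group 1 than group 2, and Psmg2 is above zero against both.

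The extent of restriction and the days were compared directly. Between days, the length of restriction cannot be told apart from the age of the rats or any batch of the day. In group 5 relative to group 3, no member passed at day 4 (1 of 43 at an unadjusted p under 0.05, median log2 -0.05 with a median SE of 0.06, 0.302% of all genes lower), and all settings of the fit gave 0. At day 14 Psma4, Psmb3, Psmd1, Psmd2 and Psmf1 fell (5.79% of all genes did), with Psmf1 at -0.33 ± 0.07 (adjusted p = 0.019) and Psmd1 at -0.26 ± 0.08 (0.0871). This count of 5 was 11 with all groups in 1 fit, 1 at an adjusted p under 0.05 and 1 to 6 with 1 rat left out at a time. Between day 14 and day 4 within group 5, 3 members were lower at day 14 (2.81% of all genes), namely Psma4 (-0.29 ± 0.07, adjusted p = 0.0339), Psmc2 (-0.20 ± 0.06, 0.0884) and Psmf1 (-0.39 ± 0.08, 0.0249). With all groups in 1 fit 11 were lower, and 7 after quantile normalization. No member passed between days in groups 1 to 4 (6, 2, 2 and 2 of 43 at an unadjusted p under 0.05 in groups 1, 2, 3 and 4), where 0.0%, 0.0%, 3.85% and 1.84% of all genes were lower at day 14. The interactions of groups 1, 3 and 4 with day were passed by no member (0.0%, 0.218% and 0.0844% of all genes lower), with 4, 1 and 2 of 43 at an unadjusted p under 0.05.

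Individual rats varied in the set as a whole. After group and day means were taken out, the median correlation between 2 members over the 49 rats was 0.36 (903 pairs), and the mean was 0.35, against 0.00 over pairs of all other genes. It was 0.51 within the core, 0.44 within the cap, 0.43 between core and cap and 0.13 among activators and chaperones. The closest pair was Psmb1 and Psmb7 (r = 0.85). The 6 pairs among the interferon-inducible genes had a median of 0.73, with Psmb9 and Psmb10 at 0.82, and the 52 pairs of these genes with alpha and beta ring genes had a median of 0.38. These values describe the same 49 arrays, so an array that reads high raises all pairs. The other genes include dim ones and were not matched to the members in intensity, so 0.00 is not a like baseline.

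Other genes of protein degradation were counted in the same comparison, group 5 relative to group 2 at day 14. Of 15 measured partners of the proteasome, 5 fell and 2 rose (median log2 -0.09), led by the stress-induced Zfand2a (-0.68 ± 0.16, adjusted p = 0.015), the deubiquitinase Usp14 (-0.40 ± 0.07, 0.00297) and the ubiquitin receptor Adrm1 (-0.21 ± 0.06, 0.0468). Of 12 genes of the p97 segregase, which pulls ubiquitin-tagged proteins out of complexes and membranes, 7 fell and 1 rose (median -0.22). Its cofactors Nsfl1c and Ufd1 fell (-0.45 ± 0.07 and -0.26 ± 0.07, adjusted p = 0.00111 and 0.0229), and Derl2 of the endoplasmic reticulum rose (0.24 ± 0.08, 0.0562). Of 9 COP9 signalosome genes, a complex built like the lid, 3 fell (median -0.04), among them Cops5 (-0.29 ± 0.07, 0.0212), its counterpart of Psmd14. Of 15 genes for ubiquitin and its conjugation 2 fell and 1 rose (median -0.07), of 8 CCT chaperonin genes 1 fell (median -0.05), and of 11 eIF3 genes, whose complex also resembles the lid, none fell and 3 rose (median 0.08). Of 8 genes of antigen presentation 2 fell (median -0.15), and of 4 ligases known from muscle atrophy Fbxo31 rose (1.12 ± 0.09, adjusted p = 1.07e-05). All of these stand beside the 10.9% of all genes that fell and the 8.88% that rose.

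Of 10 genes that control proteasome genes or the factors that do so, 1 fell and 4 rose in group 5 at day 14 (median log2 0.12). Maff, a small Maf partner of Nfe2l1 and Nfe2l2, rose by 1.33 ± 0.19 (adjusted p = 0.000827), and the forkhead factor Foxo3 by 0.85 ± 0.28 (0.0638). Stat3 was -0.56 ± 0.25 (0.169). Ddi2, the protease that activates the Nfe2l1 protein, rose by 0.92 ± 0.09 (8.65e-05), and Nfe2l2 fell (-0.54 ± 0.12, 0.00999), while Nfe2l1 was 0.12 ± 0.07 (0.298). Ddi2, Nfe2l2 and Nfe2l1 were named after their values were seen.

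Markers of other cells in the same comparison were as follows. Of 3 erythroid markers 2 fell (Alas2 and Hbb, median -1.98), with a mean per rat of 7.60 to 8.36 in group 5 and 9.12 to 9.67 in group 2 at day 14. At day 4 it was 8.82 to 9.41 in group 5 and 9.05 to 9.74 in group 2. The mean of the T and NK cell list also did not overlap at day 14, at 5.90 to 6.06 in group 5 and 6.11 to 6.34 in group 2. One marker fell of 8 for T and NK cells, of 6 for Kupffer cells, of 8 for stellate cells and of 4 for B and plasma cells. One rose of 5 for endothelial cells and of 5 for cholangiocytes, and of 5 hepatocyte markers 1 rose (Tat) and 1 fell (Apoa1). For the Kupffer list the mean per rat was 9.16 to 9.70 in group 5 and 9.32 to 9.83 in group 2 at day 14, and for the stellate list 7.42 to 8.04 and 7.61 to 8.25. The part of these cells in the result was not tested.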

How the data were processed

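Livers of 49 rats were measured on Affymetrix whole-genome rat arrays. Per the labels and the submitters' processing notes, the authors used Expression Console for quality control and RMA (R 3.0.1, affy 1.38.1) for normalization, and the deposited values are linear intensities, rounded to integers, of 31042 probe sets. RMA sets all arrays to the same distribution, so a shift of all genes at once would not be seen. Intensities were turned into log2 here. Probe sets with 1 gene symbol (20826) were kept, and those with several (436) or none (9780) were left out. The probe set with the highest mean was used for each gene, as for 9 members with several. Psmc3ip and Psme3ip1, which encode binding proteins, were not counted as members. Of 14217 genes 14167 were found in RefSeq, and no symbol changed.

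Each pair of groups was fitted with limma 3.58.1 in R 4.3.3, with Benjamini-Hochberg adjustment over all genes and a threshold of 0.1. SE is limma's moderated standard error. Intervals cannot be had from counts, and the number of arrays limits the precision. The empirical Bayes model of the study's methods was not run. Labels identify each rat by a number, and rats are the replicates. The fit was checked on simulated data. Alternatives were 1 fit of all groups, a threshold of 0.05, dim genes left out, the mean of probe sets, quantile normalization, a trended robust prior and each rat left out. Members and lists were chosen with earlier results of these data known. Values are given for the 3 members of each class with the largest mean change over the 6 comparisons with group 2, for catalytic and interferon-inducible subunits, for members called higher, never or in an interaction, and for at most 3 genes per list by the same measure. Other members or list genes with values were named after their values were seen. Tables and figures were made in Python 3.11.15 (pandas 2.3.3, numpy 2.4.6, matplotlib 3.10.9).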

Additional observations from a re-analysis of the deposited data

Results flagged for a closer look

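In 20 of 250 cases tested (21 named members and 4 means over members, in 10 groups of 4 or 5 rats), 1 rat lay far from the rest by Dixon's criterion, which chance meets in about 1 case in 20. One rat was high for Psma3 in group 5 at day 4 (8.70, next 8.52), Psmb5 in group 2 at day 14 (12.15, next 12.08), Psmb5 in group 3 at day 14 (12.05, next 11.88), Psmd1 in group 2 at day 14 (9.58, next 9.31), Psmd5 in group 4 at day 14 (10.02, next 9.71), Psmg1 in group 4 at day 14 (10.70, next 10.45), Psmg3 in group 3 at day 4 (8.99, next 8.20) and Psmg3 in group 5 at day 14 (9.04, next 8.19). One rat was low for Psma4 in group 2 at day 4 (10.34, next 10.51), Psma4 in group 3 at day 14 (9.96, next 10.23), Psma7 in group 2 at day 4 (11.32, next 11.56), Psma7 in group 4 at day 14 (11.16, next 11.23), Psmd1 in group 5 at day 4 (8.80, next 8.997), Psmd8 in group 2 at day 4 (11.24, next 11.38), Psmd14 in group 1 at day 4 (9.39, next 9.76), Psmd5 in group 4 at day 4 (9.64, next 9.82), Psme1 in group 2 at day 14 (11.90, next 12.08) and Psmg4 in group 1 at day 14 (9.85, next 10.05). All are log2 intensities. In group 2 at day 4 the same rat was also low in the mean over all members (10.35, next 10.52) and over the cap genes (10.04, next 10.20). Without it the members that fell at day 4 were 1 in group 3, 20 in group 4 and 24 in group 5, and none rose in group 5.

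The difference of group 5 from group 2 in Psmf1 differed between days by log2 -0.38 (limma interaction, adjusted p = 0.094), and it passed in 4 of 20 fits with 1 rat left out. At day 14 it was -0.31, with 5 of 5 group 5 rats below all group 2 rats, and at day 4 it was 0.07.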

How the results depend on the processing

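Counts of members were kept apart by direction, so a turn of direction could not show in them. No single call turned its direction, but each had already passed, which made a turn unlikely. In settings other than leaving out 1 rat, 83 repeated single calls no longer passed. With all groups in 1 fit, which shares 1 estimate of the spread, members that fell relative to group 2 numbered 16 and 27 for groups 3 and 4 at day 4, and 23 for group 3 at day 14. Relative to group 1, 15 and 6 rose in group 2 at days 4 and 14, 8 fell in group 3 at day 4 and 0 rose in group 3 at day 14. In that fit 11 fell in group 5 relative to group 3 at day 14, 1 was lower at day 14 in group 4 and 11 were in group 5, and 2 passed the interaction of group 5. At an adjusted p under 0.05, 7 and 12 fell in groups 4 and 5 at day 4 and 5 in group 3 at day 14, 0 rose in group 5 at day 4 or group 4 at day 14, 1 rose in group 2 relative to group 1 at day 14, 1 fell in group 5 relative to group 3 at day 14, and 0 passed the interaction. After quantile normalization 2 fell at day 4 and 5 rose at day 14 in group 2 relative to group 1, 2 rose in group 5 relative to group 1 at day 14, and 1 and 7 fell between days in groups 4 and 5. With dim genes left out, and with the trended robust prior, 8 fell in group 3 relative to group 1 at day 4. With that prior 5 rose in group 2 relative to group 1 at day 14, and with the mean of probe sets 0 rose in group 3 relative to group 1 at day 14. The causes were not tested.

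With 1 rat left out at a time, members that fell relative to group 2 at day 4 numbered 0 to 1, 4 to 20 and 10 to 24 (0 to 1 rose) for groups 3, 4 and 5, and at day 14 5 to 14, 19 to 26 (0 to 1 rose) and 24 to 31 (1 to 1 rose). The count of group 4 at day 4 was 4 to 8 without any of rats 3 and 4 of group 4 or 2, 4 and 5 of group 2. That of group 5 at day 4 was 10 to 12 without rat 5 of group 5 or rats 2, 4 and 5 of group 2. That of group 3 at day 14 was 5 to 7 without rats 1, 2, 4 and 5 of group 3 or 1, 3 and 5 of group 2, each alone. In group 2 relative to group 1, 1 to 3 fell and 4 to 16 rose at day 4, and 3 to 5 fell and 0 to 4 rose at day 14. At day 4, 16 rose without rat 1 of group 2, and 3 fell without rat 3 of group 2. At day 14, 3 fell without rat 4 of group 1, and 0 rose without rat 1 or 3 of group 1. Relative to group 1, 4 to 9, 8 to 12 and 12 to 15 fell in groups 3, 4 and 5 at day 4, and 11 to 17 (0 to 1 rose), 16 to 23 and 22 to 25 at day 14. In group 5 relative to group 3 at day 14, 1 to 6 fell, and 1 to 3 without any of rats 1, 2, 3 and 5 of group 5 or of group 3. Between days 0 to 2 fell in group 4 and 2 to 3 in group 5. In the interactions of groups 4 and 5, 0 to 1 passed. For single members, 434 of such repeated calls no longer passed and 1763 did. Taking the median in place of the mean over members moved the difference of group 1 from group 2 at day 4 to log2 -0.01. No paired analysis was possible because the labels carry no replicate number shared between groups.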
